A study of Mus musculus with 12 samples.

Results

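The insulin signalling genes described here are 9 of the 48321 rows of the expression table, chosen by gene symbol for their place in the insulin pathway, with earlier results of these data known: Insr, Irs1, Irs2, Pik3r1, Akt2, Slc2a4, Grb10, Grb14 and Foxo1. They were measured by RNAseq in 12 libraries, 3 in each of 4 groups. All cells were wild type murine brown preadipocytes immortalized with SV40 large T antigen and transduced either with the empty vector (vector) or with tSema4B, a truncated soluble form of the semaphorin Sema4B. Each line was differentiated for 8 days and then kept for 6 h without stimulation or with 2 μM norepinephrine (NE), the beta-adrenergic agonist that activates brown fat. The medium of the differentiation held 1 μg/ml insulin, 2 μM rosiglitazone, 10 μM dexamethasone, 1 mM isobutyl methylxanthine and 2 nM triiodothyronine at its start, and insulin and triiodothyronine were kept until the end. Insulin is not named among the components of the serum-free medium of the final 6 h. One stably selected line stood for each construct, so construct and line cannot be told apart, and the libraries of a group are called technical replicates by the study, so that p-values cover only the spread between these libraries.

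Insulin binds its receptor (Insr), a tyrosine kinase that phosphorylates the insulin receptor substrates (Irs1 and Irs2). The substrates recruit phosphoinositide 3-kinase through its regulatory subunit (Pik3r1), and the lipid product of that kinase activates Akt2, which in fat and muscle sends the glucose transporter GLUT4 (Slc2a4) from internal vesicles to the cell surface. Akt also keeps the transcription factor Foxo1 out of the nucleus, and the adaptors Grb10 and Grb14 bind the activated receptor and restrain it. In fat cells Slc2a4 is a late differentiation gene, whereas the transporter GLUT1 (Slc2a1) is made by most cells. The data are levels of mRNA, not of protein, phosphorylation or glucose uptake.

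RefSeq promoter windows of the mouse build GRCm38.p6 were found for 7 of the 9 genes, and the 250 bases before the transcript start were read in each of their 12 windows. Insr and Slc2a4 were not among those matched. The windows of Irs1 (chr1:82291440-82291689, minus strand) and Irs2 (chr8:11008930-11009179, minus strand) are shown because these substrates gave the contrasting values described below. Each is written 5′ to 3′, and the capitals mark the E-box CACGTG, a palindrome bound by basic helix-loop-helix factors, and TGTTTTG, a core of the insulin response element.
Irs1: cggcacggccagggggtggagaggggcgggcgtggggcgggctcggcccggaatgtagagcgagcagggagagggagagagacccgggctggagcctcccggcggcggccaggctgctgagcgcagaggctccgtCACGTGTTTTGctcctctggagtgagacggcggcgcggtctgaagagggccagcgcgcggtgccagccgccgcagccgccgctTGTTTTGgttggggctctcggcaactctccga
Irs2: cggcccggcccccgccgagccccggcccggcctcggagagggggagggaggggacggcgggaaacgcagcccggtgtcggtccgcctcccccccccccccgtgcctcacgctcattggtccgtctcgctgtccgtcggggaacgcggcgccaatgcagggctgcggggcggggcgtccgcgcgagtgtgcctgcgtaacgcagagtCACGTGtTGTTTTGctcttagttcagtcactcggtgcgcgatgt
In both windows the E-box stood next to TGTTTTG, with overlapping letters in Irs1. Counted back from the start, the E-box began at base -115 of Irs1 and base -44 of Irs2, and TGTTTTG began at -111 and -32 in Irs1 and at -37 in Irs2. Searched on both strands, CACGTG was found in 6.02% and TGTTTTG (or CAAAACA) in 5.56% of all 32851 windows of 250 bases, and 0.295% held both. The short cAMP response motif TGACG (or CGTCA), held by 17.8% of all windows, was found in Irs1, where it overlaps the E-box, and in a window each of Pik3r1 and Grb10 and 2 windows of Akt2. The full element TGACGTCA and the forkhead core TGTTTAC, held by 1.55% and 3.17% of all windows, were not among the letters of the 12 windows. The motifs were chosen after the windows had been read, and a match describes the letters only.

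Between 2000780 and 5409583 reads were counted on genes per library, with more reads in every vector library than in any tSema4B library of the same condition. Sema4b, the transduced gene, had 110786 to 124008 normalized counts in unstimulated vector cells and 258257 to 316850 in unstimulated tSema4B cells, and after NE it had 65472 to 81754 in vector and 208760 to 270694 in tSema4B cells. It was thus abundant in the vector libraries as well, and lower there than in any tSema4B library. Of the 20 fat cell markers, 19 passed the filter on low values. All 19 were lower in tSema4B than in vector cells in both conditions (limma, adjusted p of 0.05 or less). Of all genes tested, 7.39% were lower in unstimulated cells and 11.2% after NE. Pck1 and Cidea, 2 of the 19, passed the filter on low values only through the vector libraries, where they are higher, so their calls give the count no support. The summed level of the list was 44915 to 51651 normalized counts in unstimulated vector cells and 8130 to 10924 in unstimulated tSema4B cells, and after NE it was 59790 to 72069 and 12263 to 14030, respectively. Pck1 was at 0 in all libraries of both tSema4B groups and Lep in all libraries of both NE groups. Of 17 preadipocyte and fibroblast markers tested, 11 were higher in unstimulated tSema4B cells, where 5.64% of all genes tested were higher. After NE 12 were higher and 1 was lower, beside 9.79% and 11.2% of all genes. Their sum was 37178 to 37960 (vector) and 65863 to 76642 (tSema4B) in unstimulated cells, and 28575 to 31545 and 57788 to 63178 after NE. The 10 macrophage and the 10 endothelial markers summed to at most 59.6 and 54.2 normalized counts in any library, and the defining markers Adgre1 and Ptprc (macrophages) and Kdr, Tie1 and Cldn5 (endothelium) were at 0 in all 12 libraries. The endothelial sum was not level between the lines, at 21.6 to 35.6 (vector) and 43.6 to 54.2 (tSema4B) after NE. Its marker Pecam1 had 4.34 to 13.04 normalized counts in vector and 11.4 to 17.2 in tSema4B libraries. Pecam1 passed the filter on low values only through the tSema4B libraries, so no test of it is given. NE raised 6 of 10 genes tested from a list of known NE targets in vector cells, beside 6.82% of all genes. In tSema4B cells it raised 3 of the 10, beside 3.68%. Ucp1 and Il6, 2 of the 10, passed the filter on low values only through the NE libraries, so their calls give these counts no support.

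The first question was which of the insulin signalling genes differed between the lines. In unstimulated cells Slc2a4 was lower in tSema4B than in vector cells (5.96-fold) and Grb10 was higher (1.31-fold), and the other 7 genes did not pass the test. After NE, 4 of the 9 genes were lower, namely Slc2a4 (3.06-fold), Irs2 (2.50-fold), Irs1 (1.76-fold) and Insr (1.56-fold), and the inhibitory adaptors Grb14 (2.23-fold) and Grb10 (1.76-fold) were higher. Pik3r1, Akt2 and Foxo1 passed in neither condition. A gene passed at a Benjamini-Hochberg adjusted p of 0.05 or less over the 11998 genes tested with limma, a linear model with moderated variances, on log2(normalized count + 1), and folds and log2 fold changes of a gene are on that scale unless edgeR, DESeq2 or a ratio is named. In unstimulated cells 5.64% of all genes tested were called higher and 7.39% lower in tSema4B, and after NE 9.79% were called higher and 11.2% lower. The median log2 fold change of the 9 genes was -0.23 in unstimulated cells and -0.38 after NE, beside -0.003 and -0.01 over all genes tested. Both comparisons use separate libraries, and no difference between them passed in any of the 9 genes, as described below. Where groups of 3 libraries are said not to overlap, this is a description and not a call. Such groups give p = 0.1 in an exact permutation test of 3 against 3. The share of all genes whose groups do not overlap is not given here.

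**Figure D1:**
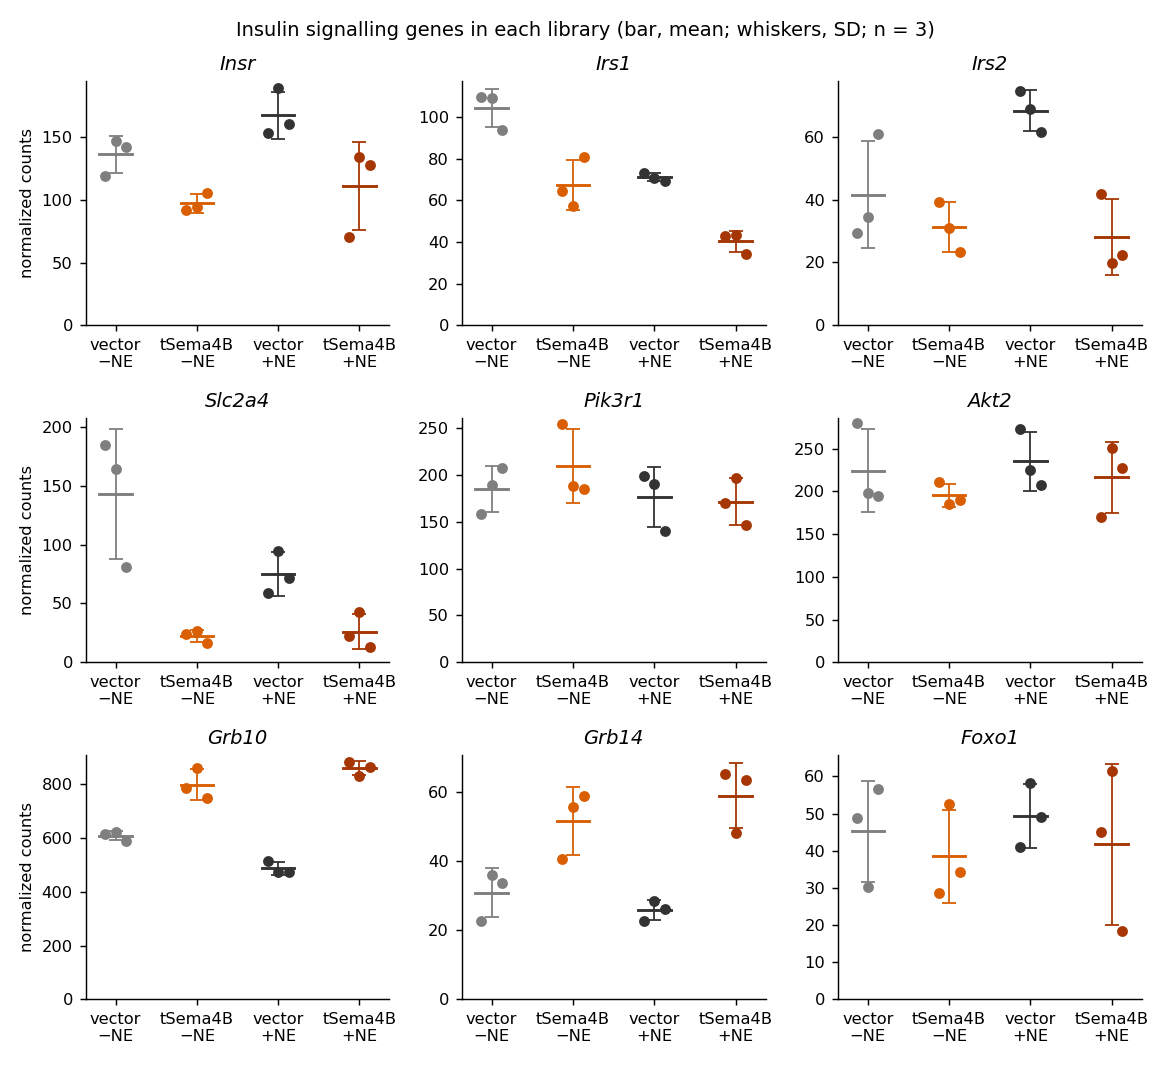
Normalized counts of the 9 genes (y axes, from 0) in each library, by line and treatment (x axes: −NE, unstimulated; +NE, norepinephrine); points are libraries, bars the mean and whiskers the SD (n = 3). Slc2a4 lies at 13.2 to 42.6 in tSema4B cells and at 58.5 to 185 in vector cells, and Grb10 is higher in every tSema4B library than in any vector library.

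Slc2a4 (chr11:69942539-69948188, minus strand, 9 exon blocks) encodes the insulin-responsive glucose transporter. Its normalized counts were 185, 164 and 80.6 in unstimulated vector cells and 23.8, 26.3 and 16.4 in unstimulated tSema4B cells. After NE they were 58.5, 94.8 and 72.0 in vector cells and 22.5, 42.6 and 13.2 in tSema4B cells. Every tSema4B library was therefore below every vector library in either condition, and replicate 3 of the unstimulated vector cells was the lowest of its group. The log2 fold change of tSema4B against vector was -2.57 ± 0.37 (SE) in unstimulated cells, with a limma adjusted p of 3.5e-05, and -1.61 ± 0.37 after NE, with an adjusted p of 0.0033. In tSema4B cells these values rest on 10 to 45 reads per library, against 74 to 195 in vector cells. The median log2 fold changes of the fat cell markers in the same comparisons were -2.35 and -1.57. In bulk RNA, fewer cells of a type and less RNA per cell cannot be told apart.

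Because the fat cell markers moved with Slc2a4, its level was also divided by their summed level in the same library, a quantity chosen after the data were seen. Per 1000 counts of the summed markers, Slc2a4 stood at 1.79 to 3.61 in unstimulated vector cells and at 1.504 to 3.23 in unstimulated tSema4B cells, so the groups overlapped. After NE the ratio was 0.978 to 1.32 in vector and 1.08 to 3.04 in tSema4B cells, which also overlapped. An exact two-sided permutation test of the log2 ratio gave p = 0.6 in unstimulated cells and p = 0.3 after NE (n = 3 against 3, for which the smallest possible p is 0.1). In vector cells this ratio was lower after NE in every library than in any unstimulated library (p = 0.1, exact permutation test, n = 3 against 3), and in tSema4B cells the values overlapped (p = 0.6, exact permutation test, n = 3 against 3). A single marker, the fatty acid binding protein gene Fabp4, made up 47.5% to 51.0% of the sum in unstimulated vector cells, 58.3% to 63.9% in NE-treated vector cells and 35.3% to 45.5% in tSema4B cells. With Fabp4 left out of the sum, the ratio was 3.66 to 6.97 in unstimulated and 2.35 to 3.64 in NE-treated vector cells, so that the groups were barely apart (p = 0.1, exact permutation test, n = 3 against 3). Between the lines it still overlapped in both conditions, with p = 0.3 in unstimulated cells and p = 1 after NE (exact permutation tests, n = 3 against 3).

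**Figure D2:**
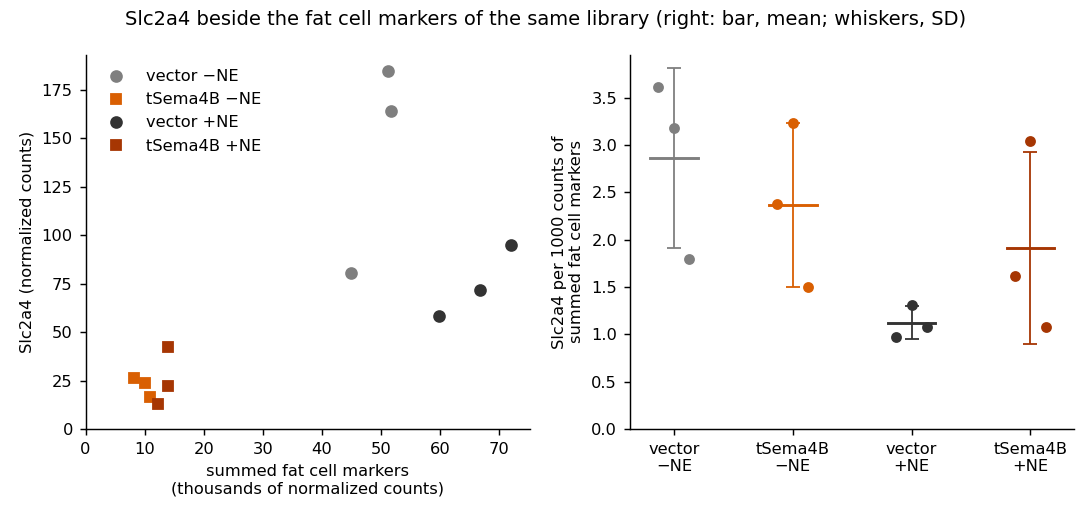
Left, Slc2a4 normalized counts (y axis) against the summed normalized counts of the 20 fat cell markers of the same library (x axis, in units of 1000), 1 point per library; right, Slc2a4 per 1000 counts of the summed markers by group (bars, mean; whiskers, SD; n = 3). The tSema4B libraries have the lowest values on both axes of the left plot, and their ratios of 1.08 to 3.23 overlap those of vector cells, 0.978 to 3.61.

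Genes for the proteins that hold and move GLUT4 vesicles were read from a list of 17, all tested. In unstimulated tSema4B cells 3 were lower (17.6%, beside 7.39% of all genes tested; median log2 fold change -0.16). After NE 4 were lower (23.5%, beside 11.2%) and 1, the motor Myo1c, was higher (median 0.03). Trarg1, a membrane protein of GLUT4 vesicles that the table lists under its older symbol Tusc5, had 199, 193 and 161 normalized counts in unstimulated vector cells and 48.9, 66.5 and 69.8 in unstimulated tSema4B cells. Tusc5 differed by -1.57 ± 0.20 on the log2 scale (SE, limma adjusted p = 5.6e-06), and after NE, at 228, 173 and 253 against 66.5, 84.3 and 74.0, it was -1.52 ± 0.20 (adjusted p = 7.9e-06). Tusc5 thus did not overlap between the lines in either condition. Sort1 encodes sortilin, a sorting receptor needed to form the insulin-responsive vesicles. It stood at 139 to 183 normalized counts in unstimulated vector cells and 49.3 to 52.6 in unstimulated tSema4B cells, with a log2 fold change of -1.57 ± 0.33 (SE, limma adjusted p = 0.0020). After NE Sort1 was lower by test (-1.11 ± 0.33, adjusted p = 0.018), although replicate 1 of the tSema4B cells (87.9) was above 2 of the vector libraries (87.3 and 66.8). Tbc1d4, the Rab GTPase-activating protein that Akt inhibits to release the vesicles, was the other gene called lower in both conditions. In the same tSema4B libraries the fat cell markers were lower too, and their part in the values of this list was not tested.

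Slc2a1, the basal transporter GLUT1, did not follow Slc2a4. Its normalized counts were 313, 252 and 196 in unstimulated vector cells and 217, 311 and 203 in unstimulated tSema4B cells. After NE they were 412, 382 and 411 in vector cells and 423, 324 and 473 in tSema4B cells. NE raised Slc2a1 in both lines, by a log2 fold change of 0.69 ± 0.17 in vector (SE, limma adjusted p = 0.012) and 0.75 ± 0.17 in tSema4B cells (adjusted p = 0.010), whereas tSema4B against vector gave -0.06 ± 0.17 in unstimulated cells, with a 95% interval of -0.42 to 0.30, and 0.00 ± 0.17 after NE, with an interval of -0.36 to 0.36. Of the 5 other glucose transporter genes tested, Slc2a1 included, 0 passed between the lines in unstimulated cells by limma, edgeR or DESeq2, with 1 at an unadjusted p below 0.05 by each. After NE 0 passed by limma, with 1 at an unadjusted p below 0.05, whereas edgeR and DESeq2 each called 1 of the 5 higher in tSema4B cells, beside 10.6% and 11.5% of all genes. That gene was Slc2a3, the transporter GLUT3, which gave 0.65 ± 0.28 by limma (SE, adjusted p = 0.11) with overlapping groups.

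Per kb of exon, Slc2a1 exceeded Slc2a4 in every library. The ratio of Slc2a1 to Slc2a4 was 1.53 to 2.41 in unstimulated vector cells (geometric mean 1.84) and 9.03 to 12.2 in unstimulated tSema4B cells (10.9). After NE it was 4.00 to 6.99 in vector cells (5.41) and 7.54 to 35.5 in tSema4B cells (17.1). The ratio did not overlap between the lines in either condition, nor between NE and unstimulated vector cells, and each of these 3 comparisons gave p = 0.1 in the exact permutation test (n = 3 against 3), the smallest it can give. In tSema4B cells the ratios with and without NE overlapped (p = 0.5, exact permutation test, n = 3 against 3).

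**Figure D3:**
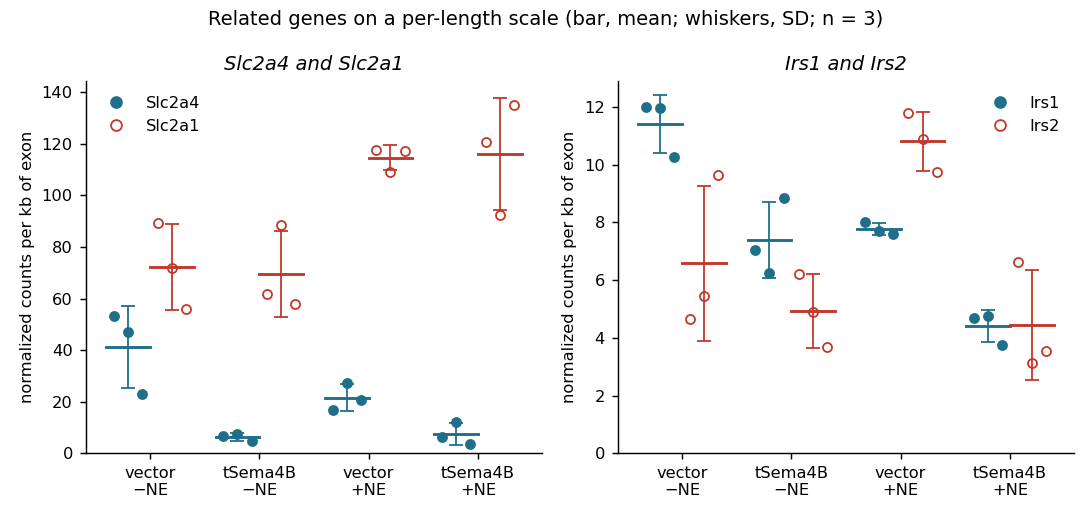
Levels per kb of exon (y axes, normalized counts per kb) of Slc2a4 and Slc2a1 (left) and of Irs1 and Irs2 (right) in each library by group (points, libraries; bars, mean; whiskers, SD; n = 3). Slc2a1 lies above Slc2a4 in every library, by 1.53 to 35.5 times, and Irs2 lies above Irs1 in all 3 NE-treated vector libraries and below it in all 3 unstimulated ones. The position of Irs2 relative to Irs1 depends on the exon lengths used.

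Insr (chr8:3122061-3279617, minus strand, 23 exon blocks), the receptor itself, was lower in tSema4B cells after NE. It had 119, 147 and 143 normalized counts in unstimulated vector cells and 91.8, 94.4 and 105 in unstimulated tSema4B cells. After NE the values were 153, 189 and 160.4 in vector cells and 70.8, 134 and 128 in tSema4B cells. The lines did not overlap in either condition, and replicate 1 of the NE-treated tSema4B cells was the lowest of all libraries. The log2 fold change was -0.64 ± 0.21 after NE (SE, limma adjusted p = 0.034) and -0.48 ± 0.21 in unstimulated cells (adjusted p = 0.14). The call after NE was lost in 7 of 16 alternatives, among them the omission of replicate 1 of the NE-treated tSema4B cells, which left -0.34 (adjusted p = 0.21), and of any of the 3 NE-treated vector libraries, with adjusted p of 0.054, 0.14 and 0.073.

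Irs1 (chr1:82233101-82291416, minus strand, 2 exon blocks), a widely expressed receptor substrate, was lower in tSema4B cells after NE. Its normalized counts were 109.7, 109.3 and 93.7 in unstimulated vector cells and 64.4, 57.2 and 80.8 in unstimulated tSema4B cells. After NE they were 73.2, 70.5 and 69.4 in vector cells and 42.9, 43.6 and 34.4 in tSema4B cells. The lines did not overlap in either condition. After NE the log2 fold change of Irs1 was -0.81 ± 0.22 (SE, limma adjusted p = 0.012). In unstimulated cells the difference of -0.63 ± 0.22 missed the threshold (adjusted p = 0.065). Without replicate 3 of the unstimulated tSema4B cells, the highest of its group, that difference was -0.77 with an adjusted p of 0.042. Irs1 shares 2822 exon bases with Gm9747 on the other strand, and Gm9747 had 0 reads in all 12 libraries. The strand setting of the counting is not given in the sources used here, so reads of the shared bases cannot be assigned to a strand.

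Irs2 (chr8:10984681-11008458, minus strand, 2 exon blocks), the second widely expressed substrate, had 29.3, 34.5 and 61.0 normalized counts in unstimulated vector cells and 39.3, 30.9 and 23.3 in unstimulated tSema4B cells, which overlapped. After NE it had 74.6, 68.8 and 61.5 in vector cells and 41.8, 19.9 and 22.5 in tSema4B cells, which did not. The log2 fold change of tSema4B against vector was -1.32 ± 0.34 after NE (SE, limma adjusted p = 0.0077) and -0.36 ± 0.34 in unstimulated cells (adjusted p = 0.55). The difference between these differences, the interaction, was -0.96 ± 0.48 and did not pass (adjusted p = 0.52). Irs2 shares 162 exon bases with 9530052E02Rik on the other strand, which had at most 5 reads in any library.

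The balance of the substrates was compared as a ratio within each library. Per kb of exon, the ratio of Irs2 to Irs1 was 0.387 to 0.942 in unstimulated vector cells, below 1 in all 3 libraries, and 1.28 to 1.47 after NE, above 1 in all 3. The log2 ratio differed by 1.33 between these groups (p = 0.1, exact permutation test, n = 3 against 3). Whether the ratio lies above or below 1 depends on the exon lengths used. Irs1 shares 2822 of its 9144 exon bases with a gene on the other strand, and Irs2 shares 162 of 6323. A ratio on the unshared bases alone was not computed. The difference between the groups does not depend on these lengths. In tSema4B cells the ratio was 0.417 to 0.884 without NE and 0.660 to 1.41 with it, which overlapped (p = 0.4, exact permutation test, n = 3 against 3). Between the lines the ratio overlapped in both conditions. The fat cell markers were lower in the same tSema4B libraries as Insr, Irs1 and Irs2, and their part in these differences was not tested.

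Pik3r1 and Akt2, which carry the signal inward from the substrates, were not called between the lines. Pik3r1 (chr13:101680563-101768217, minus strand, 18 exon blocks), a regulatory subunit of phosphoinositide 3-kinase, lay between 140.1 and 255 normalized counts over all 12 libraries. Its log2 fold change in tSema4B was 0.17 ± 0.18 in unstimulated cells (SE, 95% interval -0.20 to 0.54) and -0.04 ± 0.18 after NE (-0.40 to 0.33). Akt2 (chr7:27591552-27640826, plus strand, 23 exon blocks), the Akt isoform that drives GLUT4 traffic, lay between 171 and 280.2 normalized counts, and its log2 fold changes were -0.18 ± 0.17 (-0.53 to 0.18) and -0.13 ± 0.17 (-0.48 to 0.22). The intervals of both genes after NE stayed within 0.5 on the log2 scale, so larger differences lie outside them. The related kinase Akt1 did not pass in any of the 4 comparisons and lay at 81.0 to 175 normalized counts. The ratio of Akt1 to Akt2 per kb lay between 0.669 and 1.42 over all libraries and overlapped in every comparison. Of the 12 other genes of phosphoinositide 3-kinase and Akt activation, 0 passed in unstimulated cells by limma, edgeR or DESeq2, with 3 at an unadjusted p below 0.05 by each. After NE 2 of them, the regulatory subunit Pik3r2 and the mTOR complex subunit Rictor, were higher in tSema4B cells (16.7%, beside 9.79% of all genes). Per kb of exon Pik3r2 stood above Pik3r1 in every group, at 84.1 ± 9.1 against 18.4 ± 2.5 normalized counts per kb in unstimulated vector cells and 102.1 ± 9.2 against 20.8 ± 3.9 in unstimulated tSema4B cells (SD, n = 3).

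Grb10 (chr11:11930508-12038683, minus strand, 22 exon blocks), an imprinted adaptor that blocks the receptor kinase, was higher in tSema4B cells in both conditions. Its normalized counts were 616, 621 and 588 in unstimulated vector cells and 787, 862 and 748 in unstimulated tSema4B cells. After NE they were 515, 475 and 472 in vector cells and 884, 831 and 864 in tSema4B cells. Every tSema4B library was above every vector library. The log2 fold change was 0.39 ± 0.09 in unstimulated cells (SE, limma adjusted p = 0.0056) and 0.82 ± 0.09 after NE (adjusted p = 1.2e-06).

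Grb14 (chr2:64912476-65024987, minus strand, 14 exon blocks), a related adaptor that inhibits the receptor kinase as a pseudosubstrate, was far less abundant. It had 22.8, 36.2 and 33.8 normalized counts in unstimulated vector cells and 40.5, 55.7 and 58.9 in unstimulated tSema4B cells, and after NE 22.8, 28.4 and 26.2 in vector cells and 65.4, 48.3 and 63.4 in tSema4B cells. The lines did not overlap in either condition. The log2 fold change was 1.16 ± 0.29 after NE (SE, limma adjusted p = 0.0071) and 0.73 ± 0.29 in unstimulated cells, which did not pass (adjusted p = 0.11). Per kb the ratio of Grb14 to Grb10 lay between 0.0469 and 0.0996 in all libraries and overlapped in every comparison. The preadipocyte and fibroblast markers were higher in the same tSema4B libraries as both adaptors, and their part in these differences was not tested.

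Foxo1 (chr3:52268336-52353221, plus strand, 3 exon blocks), the forkhead factor that insulin holds in the cytoplasm, lay between 18.5 and 61.5 normalized counts and overlapped between all groups compared. Its log2 fold change in tSema4B was -0.23 ± 0.38 in unstimulated cells (SE, 95% interval -1.01 to 0.55) and -0.38 ± 0.38 after NE (-1.16 to 0.40), and differences within these bounds are not excluded. It shares 674 exon bases with Gm20402 on the other strand, which had 0 reads in all libraries. Of 13 related forkhead factors and known Foxo targets tested, 3 were lower (23.1%, beside 7.39% of all genes) and 1 was higher (7.69%, beside 5.64%) in unstimulated tSema4B cells. After NE 3 were lower (23.1%, beside 11.2%) and 2 were higher (15.4%, beside 9.79%). Pdk4, the kinase that shuts pyruvate out of oxidation, had 1180.4 to 1408 normalized counts in unstimulated vector cells and 476 to 523 in unstimulated tSema4B cells, with log2 fold changes of -1.33 ± 0.11 (limma adjusted p = 1.7e-08) and -1.39 ± 0.11 after NE (adjusted p = 7.7e-09). Klf15, a factor that activates Slc2a4 transcription in fat cells, gave -1.75 ± 0.32 (adjusted p = 0.00051) and -1.40 ± 0.32 (adjusted p = 0.0030). Gadd45a, a growth arrest gene, was higher in unstimulated tSema4B cells (1.20 ± 0.33, adjusted p = 0.016) and overlapped between the lines after NE.

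**Figure D4:**
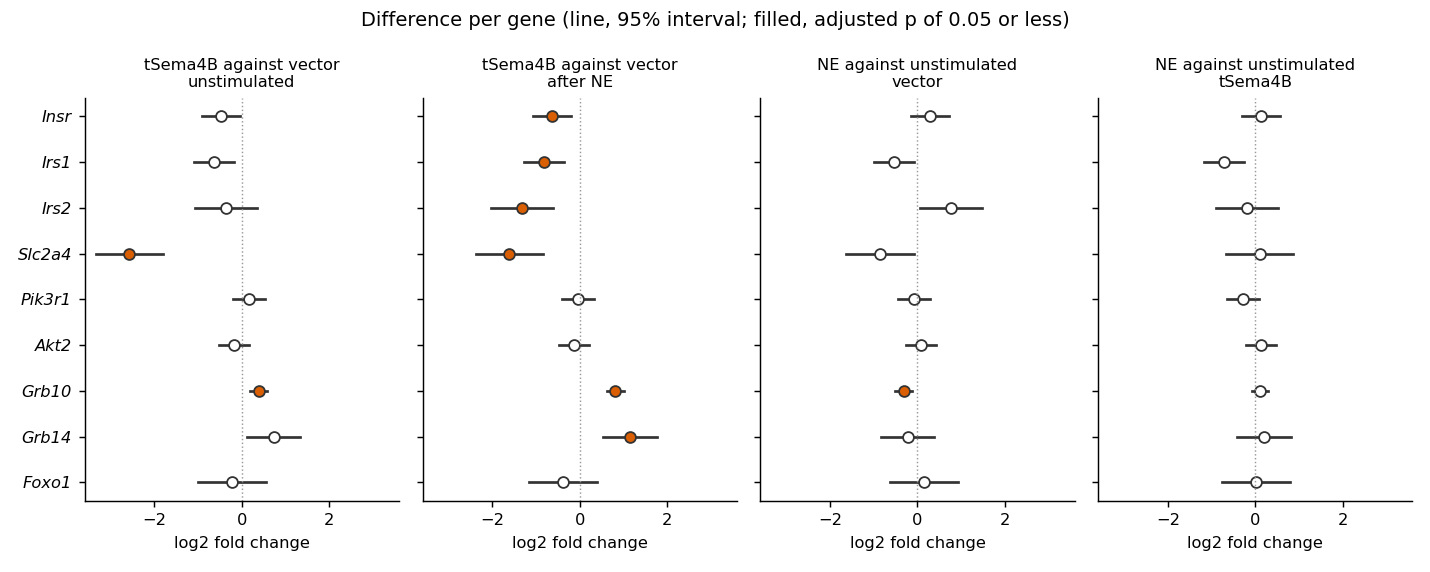
Log2 fold change of each of the 9 genes (x axes, points; lines, 95% interval) in the 4 comparisons of 2 groups, with 3 libraries per group; filled points passed at an adjusted p of 0.05 or less. Slc2a4 and Grb10 are filled in both comparisons of tSema4B with vector, 6 genes are filled after NE, Grb10 alone is filled for NE in vector cells, and no gene is filled for NE in tSema4B cells.

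The second question was what NE did to these genes within each line. In vector cells NE lowered Grb10 (1.25-fold), and the other 8 genes did not pass. Among all genes tested, 6.82% were called higher and 4.78% lower. Grb10 fell by 0.32 on the log2 scale (SE 0.09, limma adjusted p = 0.025), with every NE library below every unstimulated one, and the call was lost without replicate 1 or 2 of the unstimulated or replicate 2 or 3 of the NE-treated vector libraries (adjusted p of 0.083 to 0.10). Irs2 stood 0.77 ± 0.34 higher (SE, adjusted p = 0.17), Insr 0.29 ± 0.21 higher (adjusted p = 0.43) and Irs1 at -0.54 ± 0.22 (adjusted p = 0.13), each with groups that did not overlap but without a call. Slc2a4 stood at -0.86 ± 0.37 (SE, limma adjusted p = 0.15), with overlapping groups through the low replicate 3 of the unstimulated cells, and it was called lower by edgeR (-0.92, adjusted p = 0.042, beside 5.35% of all genes called lower), by DESeq2 (-0.93, adjusted p = 0.0447, beside 6.16%) and in a limma fit of the 6 vector libraries alone (adjusted p = 0.025). Irs1 was also called in that fit (adjusted p = 0.042). The 95% intervals of Pik3r1 (-0.44 to 0.29) and Akt2 (-0.27 to 0.43) were the narrowest among the genes without a call. In the same vector libraries NE lowered 8 of the 17 preadipocyte and fibroblast markers tested and raised 1. It raised 2 and lowered 3 of the 19 fat cell markers, and raised the macrophage marker Cd14. Csf1r, the other macrophage marker that reached the filter, did so only through the NE libraries, so no test of it is given. The part of these markers in the values under NE was not tested.

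In tSema4B cells NE changed 0 of the 9 genes by limma, edgeR or DESeq2, and 1, Irs1, had an unadjusted p below 0.05 by each. Of all genes tested 3.68% were called higher and 2.58% lower. Irs1 stood at -0.72 ± 0.22 (SE, limma adjusted p = 0.056), with every NE-treated library below every unstimulated one, and without replicate 2 of the unstimulated tSema4B cells it was called (-0.83, adjusted p = 0.048). Its values after NE were thus below those without NE in all libraries of both lines. Slc2a4 (0.10 ± 0.37), Irs2 (-0.19 ± 0.34) and Insr (0.14 ± 0.21) overlapped between the conditions. Grb10 gave 0.11 ± 0.09 (SE, 95% interval -0.08 to 0.30). In the same libraries NE lowered 9 and raised 1 of the 17 preadipocyte and fibroblast markers and raised 5 of the 19 fat cell markers.

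The response to NE was then compared between the lines as an interaction. None of the 9 genes passed by limma, edgeR or DESeq2. By limma 1 gene, Grb10, had an unadjusted p below 0.05, and by edgeR and DESeq2 2 did, Grb10 and Slc2a4. Over all genes 0.025% were called higher and 0% lower by limma, and at an unadjusted p below 0.05 limma had 602 higher and 625 lower. By adjusted p, edgeR called 3 higher and 1 lower, and DESeq2 called 29 higher and 58 lower among its 5950 genes. The interaction of Grb10 was 0.43 ± 0.13 (SE, limma adjusted p = 0.23), that of Slc2a4 0.96 ± 0.53 (adjusted p = 0.55) and that of Grb14 0.42 ± 0.42 (adjusted p = 0.79). A call after NE without one in unstimulated cells, as in Insr, Irs1, Irs2 and Grb14, is therefore not shown to be a difference between the conditions.

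The wider pathway was read from 8 lists of other genes, of which 94 were tested and 7 were too low to be. The median log2 fold change of the 94 in tSema4B was -0.06 without NE and 0.04 after it. Leaving out the 2 genes that passed the filter on low values only through 1 line, 92 remained. Without NE, 5 of the 92 were higher and 10 lower (5.43% and 10.9%, beside 5.64% and 7.39% of all genes tested). After NE 13 were higher and 13 lower (14.1% each, beside 9.79% and 11.2%). Near the receptor, 1 of 8 adaptor and receptor genes that reached the filter in both lines, Igf1r, was higher and 1 was lower in unstimulated cells (12.5% each, beside 5.64% and 7.39% of all genes). After NE 4 of the 8 were higher (beside 9.79% of all genes) and 1 was lower (12.5%, beside 11.2%). The remaining gene of that list, Sh2b2, an adaptor that joins the insulin receptor to Cbl, had 20.6, 26.1 and 14.2 normalized counts in unstimulated vector cells and 2.38, 4.64 and 2.74 in unstimulated tSema4B cells. After NE it had 28.2, 35.0 and 20.95 in vector cells and 2.14, 7.57 and 6.61 in tSema4B cells. The lines did not overlap, but Sh2b2 was counted with 2 to 8 reads in tSema4B libraries and passed the filter on low values only through the vector libraries, so its values are a description and no test is given.

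Among 16 inhibitors of insulin signalling tested, 2 were higher in tSema4B cells in each condition (12.5%, beside 5.64% of all genes without NE and 9.79% after it). Ptprf, a receptor phosphatase that acts on the insulin receptor, had 26.9 to 48.9 normalized counts in unstimulated vector cells and 80.4 to 83.5 in unstimulated tSema4B cells, with log2 fold changes of 1.07 ± 0.25 (SE, limma adjusted p = 0.0049) and 1.06 ± 0.25 after NE (adjusted p = 0.0039). Enpp1, a membrane phosphodiesterase that binds and inhibits the receptor, gave 0.96 ± 0.14 (adjusted p = 3.5e-05) and 1.17 ± 0.14 after NE (adjusted p = 2.6e-06). The preadipocyte and fibroblast markers were higher in the same tSema4B libraries as Ptprf and Enpp1, and their part in these differences was not tested. Within each line NE raised 5 of the 16 (31.2%) and lowered 1 (6.25%), beside 6.82% and 4.78% of all genes in vector and 3.68% and 2.58% in tSema4B cells. Socs3, a cytokine-induced inhibitor of the receptor and its substrates, rose from 44.7 to 68.1 normalized counts to 197 to 229 in vector cells (log2 fold change 1.89 ± 0.23, adjusted p = 8.1e-06) and from 58.9 to 118 to 171 to 240.5 in tSema4B cells (1.41 ± 0.23, adjusted p = 0.00042). Trib1, a pseudokinase that can bind Akt, rose by 1.14 ± 0.25 (adjusted p = 0.0045) and 1.37 ± 0.25 (adjusted p = 0.0013).

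Of 11 metabolic effectors of the pathway, 2 were lower in tSema4B cells in each condition (18.2%, beside 7.39% of all genes without NE and 11.2% after it). Hk2, the hexokinase that traps glucose taken up through GLUT4, had 61.9, 48.8 and 25.1 normalized counts in unstimulated vector cells and 2.38, 18.6 and 6.85 in unstimulated tSema4B cells. The difference in Hk2 was -2.43 ± 0.51 on the log2 scale (SE, limma adjusted p = 0.0020), and -1.96 ± 0.51 after NE (adjusted p = 0.0077). In tSema4B cells Hk2 had 2 to 12 reads per library without NE and 9 to 18 after it, so these differences rest on few reads. Srebf1, the lipogenic factor, was the other gene lower in unstimulated cells and Pde3b, the phosphodiesterase through which insulin restrains lipolysis, the other after NE. The fat cell markers were lower in the same tSema4B libraries as Sh2b2, Tusc5, Sort1, Tbc1d4, Hk2, Srebf1, Pde3b, Pdk4, Klf15 and Eif4ebp1. The part of these markers in those values was not tested. Of 11 genes of the mTORC1 branch 1 was higher and 1, Eif4ebp1, was lower in unstimulated cells (9.09% each, beside 5.64% and 7.39% of all genes). After NE 2 were higher (18.2%, beside 9.79%) and 3 lower (27.3%, beside 11.2%). Under NE 8 of the 94 genes were higher (8.51%, beside 6.82% of all genes) and 11 lower (11.7%, beside 4.78%) in vector cells, and 7 were higher (7.45%, beside 3.68%) and 1 was lower (1.06%, beside 2.58%) in tSema4B cells. In vector cells Sesn3, a stress-induced Foxo target, was the Foxo target with the largest fall (-1.29 ± 0.18, SE, limma adjusted p = 5.2e-05). The interaction of 0 of the 94 passed by limma, edgeR or DESeq2, and 10 had an unadjusted p below 0.05 by each. DESeq2 gave an adjusted p for the interaction to only 5950 of all genes, and how many of the 94 had one is not given here.

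**Figure D5:**
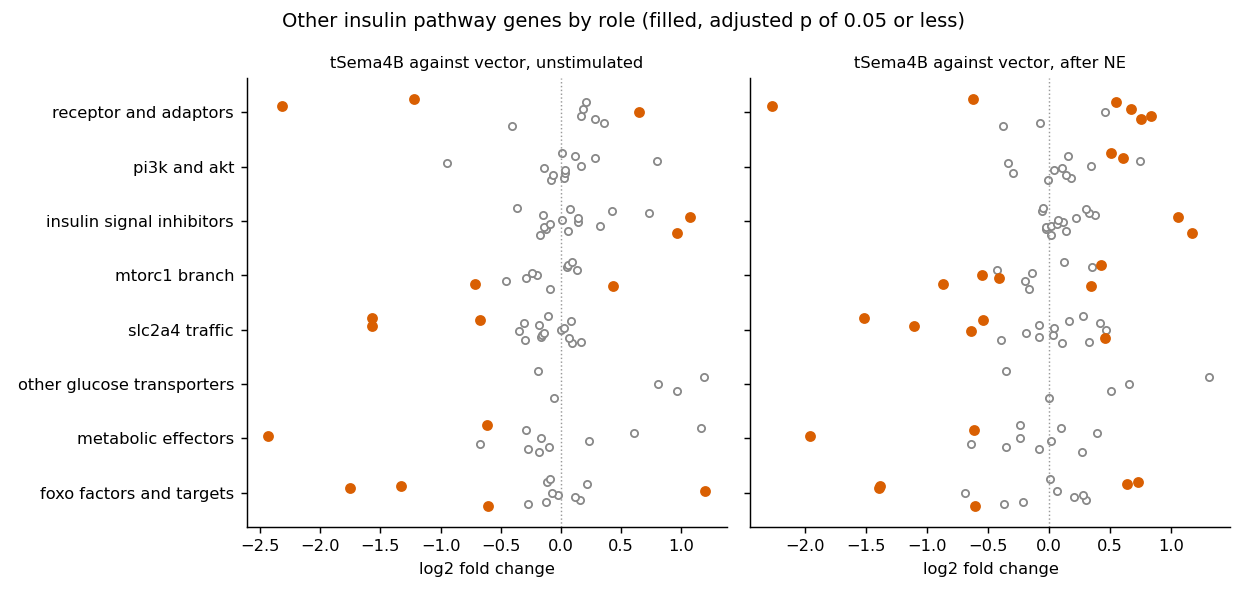
Log2 fold change (x axes) of tSema4B against vector for the 94 tested genes of the 8 pathway lists, by role (rows), in unstimulated (left) and NE-treated cells (right); each point is a gene and filled points passed at an adjusted p of 0.05 or less. Hk2 lies at -2.43 and -1.96, and the leftmost point of the receptor and adaptor row is Sh2b2. Sh2b2 passed the filter on low values only through the vector libraries, so its points are a description and not a test.

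Set side by side per kb of exon, which allows levels to be compared between genes, Grb10 was the highest of the 9 in every group, at 66.9 ± 2.0 normalized counts per kb in unstimulated vector cells (SD, n = 3). There Slc2a4 came next (41.1 ± 15.8) and overlapped with Akt2 (31.4 ± 6.8), followed by Pik3r1 (18.4 ± 2.5), apart from both its neighbours. Irs1 (11.4 ± 1.0), Insr (9.92 ± 1.1), Irs2 (6.58 ± 2.7), Foxo1 (5.22 ± 1.6) and Grb14 (4.30 ± 0.99) each overlapped with the next. In unstimulated tSema4B cells the order was Grb10 (87.9), Akt2 (27.4) and Pik3r1 (20.8), each apart from the next, and then Irs1 (7.38), Grb14 (7.19), Insr (7.07), Slc2a4 (6.38), Irs2 (4.93) and Foxo1 (4.44), each overlapping with the next. After NE Slc2a4 was at 21.6 ± 5.3 per kb in vector cells, overlapping with Pik3r1, and at 7.51 ± 4.3 in tSema4B cells, where it overlapped with Insr above it and Foxo1 below it. Grb14 was the lowest of the 9 in both vector groups (3.59 ± 0.39 after NE), and in NE-treated tSema4B cells (8.22 ± 1.3) it came after Pik3r1 and overlapped with Insr.

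The genes whose log2 levels followed Slc2a4 most closely over the 12 libraries were Adhfe1 (Pearson's r = 0.952), an alcohol dehydrogenase family gene expressed in fat, Ywhab (0.950), a 14-3-3 protein, Ptgr2 (0.949), a prostaglandin reductase, Dgkz (0.947), a diacylglycerol kinase, and a row whose symbol had been turned into a date (0.946). These correlations are a description. The 12 libraries fall into 4 groups that differ in fat cell markers and in depth, which the genes share.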

How the data were processed

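RNAseq libraries were made by the authors with SMART-Seq2 and Nextera XT chemistry, which does not mark strand, and read as single-end reads. The labels' processing notes name STAR 2.7.9a, HTSeq and DESeq2, with mm10 and GRCm38.p4 as builds. The gene annotation and strand setting are not given in the sources used here. The signal the authors deposited is a normalized count per gene, the reads divided by the DESeq2 size factor of the library. Dividing by the value of 1 read gave a whole number within 0.01 for 100% of values above 0, which returned the reads used in the count tests. Reads counted on genes were 2841941 to 3682634 (unstimulated vector), 2000780 to 2541747 (unstimulated tSema4B), 4739777 to 5409583 (NE vector) and 2307190 to 3144946 (NE tSema4B), and 1 read was worth 0.593 to 1.55 normalized counts.

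Libraries were grouped by their labels. limma 3.58.1 (R 4.3.3) was fitted once to all 12 libraries on log2(normalized count + 1) for the 11998 genes that reached 10 normalized counts in 3 or more libraries, with a variance trend, two-sided tests and Benjamini-Hochberg adjustment. All 9 genes passed the filter. The 95% intervals are limma's for single genes, without adjustment. Ratios within a library were tested by exact permutation. Exon lengths, positions and overlaps came from GENCODE for GRCm38, and levels per kb use the union of exons. Alternatives were pseudocounts of 0.5 and 10, no filter or a filter of 50, rescaling to the same total, quantile normalization, edgeR 4.0.16 and DESeq2 1.42.0 on recovered reads, a fold threshold of 1 on the log2 scale, as the study used, a fit of only the libraries compared, a replicate block, and each library left out. The scripts were tested on simulated data.

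The 9 genes and all lists were chosen with earlier results of these data known. Beyond the 9, the text names genes of a list that passed and differed by 1 or more on the log2 scale (at most 3 per list and comparison), Slc2a1, Akt1, the 5 genes most like Slc2a4, and Sema4b, while some genes that the rule names are not reported here. Igf1r, Myo1c, Tbc1d4, Pik3r2, Rictor, Srebf1, Pde3b, Eif4ebp1, Slc2a3 and the marker and NE target genes fall outside that rule and were chosen after their values were seen.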

Additional observations from a re-analysis of the deposited data

How the results depend on the processing

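Of the 9 calls among the insulin signalling genes, 133 of 144 alternatives kept the direction and the call, and 11 lost the call, 7 for Insr after NE and 4 for Grb10 under NE in vector cells. This tally leaves out the fold threshold and the division of Slc2a4 by fat cell markers. With a difference of 1 or more on the log2 scale required as well, 5 of the 9 calls were lost: 1 gene passed between the lines in unstimulated cells, 3 after NE and 0 under NE in vector cells. Under NE in vector cells edgeR and DESeq2 called 2 genes each, the fit of only the libraries compared called 3, and leaving out 1 library gave 0 to 1. Leaving out 1 library gave 2 to 3 genes between the lines in unstimulated cells, 5 to 6 after NE and 0 to 1 under NE in tSema4B cells. With the replicate block 2, 6, 1, 0 and 0 genes passed in the 5 comparisons, as without it. Same-numbered libraries had correlations of -0.047 to 0.028 over 18 pairs after the group means were removed. No pairing by number was seen, which does not show that none exists. Without a call in either setting, 13 differences turned sign in 29 alternatives. Leaving out 1 library, these ran after NE from -0.19 to 0.071 (Pik3r1), -0.25 to 0.032 (Akt2) and -0.74 to 0.10 (Foxo1); under NE in vector cells from -0.19 to 0.079 (Pik3r1), -0.034 to 0.25 (Akt2) and -0.10 to 0.34 (Foxo1); under NE in tSema4B cells from -0.026 to 0.43 (Insr), -0.51 to 0.0088 (Irs2), -0.32 to 0.49 (Slc2a4) and -0.35 to 0.49 (Foxo1); and in the interaction from -0.32 to 0.14 (Insr), -0.12 to 0.21 (Akt2) and -0.51 to 0.33 (Foxo1). Rescaled to the same total, Pik3r1 after NE was 0.059, and the interaction of Foxo1 was 0.0197 by edgeR and 0.0099 by DESeq2. Divided by the summed fat cell markers, an alternative added after the data were seen, Slc2a4 in tSema4B against vector was 0.64 after NE and -0.28 in unstimulated cells, and NE gave -1.30 in vector and -0.38 in tSema4B cells, with overlapping groups except in vector cells under NE. With Fabp4 left out of that sum, also added later, the values were 0.026, -0.47, -0.88 and -0.39. These ratios do not test a cause, and the cause of the changes was not tested. Rescaling moved the median of all genes by at most 0.0942 on the log2 scale, after NE. Slc2a4 rested on 10 to 45 reads per library in tSema4B cells, and how depth bears on these results was not tested.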
